A study of Mus musculus with 6 samples.

Results

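The genes described here are 34 glycolytic enzymes, glucose and lactate carriers, and regulators and targets of the hypoxia-inducible factor (HIF), listed by symbol. All 34 were found among the 24062 genes of the count table. RNA was sequenced from lineage-negative mouse hematopoietic cells, which lack surface markers of mature blood lineages, that a retrovirus had made to express MLL-AF9, the product of a chromosome rearrangement found in acute myeloid leukemia. The 3 KO-labelled libraries came from cells with the genotype A20 f/f, and the 3 WT-labelled libraries from cells with the genotype A20 +/+. Both groups carried Rosa Cre-ER, a recombinase active only in the presence of tamoxifen, grew in medium with IL-6, IL-3 and SCF, and received 1 µM 4-hydroxytamoxifen for 48 h. The comparison asked how expression differed after deletion of A20, the ubiquitin-editing enzyme encoded by Tnfaip3 that restrains NF-κB signalling. The labels do not say how many mice or separate cultures stood behind the libraries, so p-values measure only the spread between these libraries.

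Glycolysis splits glucose into pyruvate, and lactate dehydrogenase and the monocarboxylate transporter MCT4 allow the product to leave the cell as lactate. HIF is a dimer of an oxygen-sensitive alpha subunit, such as the product of Hif1a, and a constant beta subunit, the product of Arnt. With oxygen, prolyl hydroxylases of the EGLN family mark the alpha subunit for destruction. Without it, the dimer binds short DNA elements with the core ACGTG or GCGTG, and many glycolytic genes are among its targets. In myeloid cells several of the same genes also respond to inflammatory signals, and glycolysis is a main energy source of neutrophils and activated macrophages.

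Levels are read counts scaled to library depth (CPM) with TMM, a correction for differences in RNA composition between libraries. The libraries held 16113320 to 25415274 counted reads, and 3 reads corresponded to 0.125 to 0.179 CPM. The targeted gene went against its label. Tnfaip3 had 100.1, 74.1 and 79.1 CPM in KO-labelled libraries, against 7.39, 8.67 and 8.24 CPM in WT-labelled libraries. These counts sum reads over the whole gene, and which exons the floxed allele loses is not stated in the labels. Directions below therefore refer to the labels. The X-inactivation RNA Xist and the Y-linked Ddx3y, whose values are given with Pdk3, also separated the groups, so for every gene compared here the sex of the cells and the label cannot be told apart. In both groups replicate 1 differed from the other replicates. It is given separately below because Gapdh was known beforehand to differ there. Markers shared by blood cells summed to 2957 to 4107 CPM in the KO-labelled and 2049 to 3330 CPM in the WT-labelled libraries. Of 8 myeloid markers 3 were higher (Csf1r, Cebpb and Fcgr3) and 1 was lower (Mpo) in the KO-labelled libraries at an adjusted p under 0.05, beside 13.7% of all tested genes in each direction, and their sum ranged from 2263 to 3186 CPM in the KO-labelled and from 1162 to 4046 CPM in the WT-labelled libraries. Cd3e, Cd8a, Pax5, Hba-a1, Hbb-bs and Dcn, which mark T, B, erythroid and stromal cells, had no read in any library. Other markers of these cells were low but present. In edgeR, Cd4 was higher with means of 1.98 CPM in the KO-labelled and 0.038 CPM in the WT-labelled libraries (adjusted p = 0.0228). The stromal marker Pdgfrb was higher too, at 3.48 CPM with the KO label and 0.392 CPM with the WT label (0.00235), and the B cell marker Cd79b was lower, at 0.347 CPM with the KO label and 2.01 CPM with the WT label (0.0104). The part of these markers in the results was not tested. Klf1 and Col1a1 were detected without a call. Megakaryocyte markers, mostly Itga2b, summed to 0.766 to 1.07 CPM in the KO-labelled and 22.8 to 37.5 CPM in the WT-labelled libraries. Endothelial markers summed to 58.9 to 104 CPM in the KO-labelled and 257.8 to 329 CPM in the WT-labelled libraries. Nearly all of this was Pecam1, while Cdh5 and Kdr had at most 3 reads in any library. Sums that rest mainly on 1 gene do not show that these cell types were present. In bulk RNA of this kind, fewer cells of a type and less RNA per cell cannot be told apart.

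RefSeq promoter windows of GRCm38.p6 (mm10) were matched by symbol for 32 of the 34 genes, without Slc2a3 and Ndrg1. Where RefSeq gave several windows, as the 2 for Ldha, the one nearest to the GENCODE gene start was taken. The HIF core was searched as ACGTG and GCGTG on both strands, so CACGT and CACGC also counted, and the palindrome CACGTG counted as 2 overlapping matches. Within 250 bases before the start, 26 of 32 windows (81.2%) held at least 1 match, against 38.6% of 32851 RefSeq windows of the same length. The windows of these genes were also richer in G and C, with a median of 62.8% against 52.4% in all windows. The listed genes gave 1 window each, while the full set held every RefSeq window, several for some genes. The list also includes genes chosen as HIF targets, so the shares do not compare like with like. Matches occurred in 5 of 6 matched genes that were higher in the KO-labelled libraries, in 4 of 4 that were lower and in 16 of 21 without a call. The following windows, 5′ to 3′ on the strand of the gene, belong to 4 genes that were higher and 2 that were lower in the KO-labelled libraries, and were chosen after their values were seen. Capitals mark the matched core.
Slc16a3, chr11:120948817-120949066, plus strand: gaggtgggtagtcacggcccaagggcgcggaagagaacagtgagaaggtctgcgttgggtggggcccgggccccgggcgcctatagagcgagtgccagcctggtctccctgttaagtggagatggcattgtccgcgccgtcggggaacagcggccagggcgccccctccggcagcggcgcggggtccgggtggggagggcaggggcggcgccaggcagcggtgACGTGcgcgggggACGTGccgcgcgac
Ldha, chr7:46845554-46845803, plus strand: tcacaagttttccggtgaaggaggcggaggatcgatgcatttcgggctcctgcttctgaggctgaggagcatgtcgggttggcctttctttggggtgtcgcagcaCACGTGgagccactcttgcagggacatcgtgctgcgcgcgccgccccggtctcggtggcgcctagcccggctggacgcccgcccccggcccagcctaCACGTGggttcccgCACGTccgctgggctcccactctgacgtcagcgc
Ero1l (RefSeq name Ero1a), chr14:45318573-45318822, minus strand: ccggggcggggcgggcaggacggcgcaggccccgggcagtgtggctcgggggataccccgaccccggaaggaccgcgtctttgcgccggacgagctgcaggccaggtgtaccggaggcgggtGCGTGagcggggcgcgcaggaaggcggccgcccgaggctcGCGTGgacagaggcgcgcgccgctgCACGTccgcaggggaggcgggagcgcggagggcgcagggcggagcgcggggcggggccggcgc
P4ha1, chr10:59323046-59323295, plus strand: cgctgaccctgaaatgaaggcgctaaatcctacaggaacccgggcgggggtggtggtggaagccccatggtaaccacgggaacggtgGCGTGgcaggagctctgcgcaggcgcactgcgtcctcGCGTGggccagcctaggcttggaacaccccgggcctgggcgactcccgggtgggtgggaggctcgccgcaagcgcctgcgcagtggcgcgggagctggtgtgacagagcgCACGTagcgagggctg
Egln3, chr12:54203875-54204124, minus strand: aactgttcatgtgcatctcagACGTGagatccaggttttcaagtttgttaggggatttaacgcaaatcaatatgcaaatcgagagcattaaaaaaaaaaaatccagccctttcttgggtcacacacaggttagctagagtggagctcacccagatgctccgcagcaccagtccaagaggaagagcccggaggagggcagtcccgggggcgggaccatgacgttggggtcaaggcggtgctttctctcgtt
Hk3, chr13:55021386-55021635, minus strand: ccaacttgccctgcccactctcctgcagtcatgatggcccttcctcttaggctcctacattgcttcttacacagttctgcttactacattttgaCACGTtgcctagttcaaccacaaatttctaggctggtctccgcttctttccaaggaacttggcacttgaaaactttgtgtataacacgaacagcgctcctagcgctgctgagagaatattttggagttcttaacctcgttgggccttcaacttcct
The matches of Slc16a3 began 27 and 14 bases before the start. Ldha had 5 matches, of which 4 formed a pair of CACGTG palindromes beginning 145 and 48 bases before the start. Egln3 and Hk3, which were lower, each had 1 match, at 229 and 156 bases, and Pdk3, also lower and not printed, had 4. A match describes letters in the window and does not show that HIF was bound there.

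Of the 34 genes, 33 passed the filter on low counts and were tested. With the KO label 7 were higher and 4 were lower at an adjusted p under 0.05 (edgeR quasi-likelihood test with Benjamini-Hochberg adjustment over 12126 genes), and 22 had no call. The called share of 33.3% compares with 27.3% of all tested genes. By direction, 21.2% of the 33 were higher, against 13.7% of all tested genes, and 12.1% were lower, against 13.7%. The median log2 fold change was 0.26 over the 33 genes and -0.04 over all tested genes. The 7 higher genes were Slc2a3, Slc16a3, Aldoc, P4ha1, Ero1l, Ldha and Aldoa, and the 4 lower genes were Ldhb, Hk3, Egln3 and Pdk3. Groups did not overlap for 19 of the 33 genes, beside 47.6% of all tested genes. For 13 genes every KO-labelled library was above, beside 24.1%, and for 6 every one was below, beside 23.5%.

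The number of higher genes depended on single libraries. It was 4 without KO replicate 1, and 3 without KO replicate 2, KO replicate 3 or WT replicate 2, while 9 genes were higher without WT replicate 1. In all tested genes the higher share was 8.91%, 7.6% and 7.89% without KO replicate 1, 2 and 3, and 22%, 9.87% and 9.86% without WT replicate 1, 2 and 3. The number of lower genes was 2 without KO replicate 2 or KO replicate 3. In all tested genes the lower share was 9.49%, 7.41% and 7.54% without KO replicate 1, 2 and 3, and 20.8%, 9.95% and 10.2% without WT replicate 1, 2 and 3. Slc2a3, Slc16a3, Ero1l, Hk3 and Ldhb kept their calls whichever of the 6 libraries was left out. When only replicates 2 and 3 entered the fit, 14 of the 33 genes (42.4%) were higher and 6 (18.2%) lower, and all 11 calls from the 6 libraries were among them. Calls were also more frequent among all 12201 genes tested there, at 25.8% higher, 27.1% lower and 52.9% in either direction. Replicates 2 and 3 were much more alike than either was to replicate 1. The chi-square of their counts per degree of freedom was 2.37 in the KO-labelled group, against 94.5 and 79.7 with replicate 1. In the WT-labelled group it was 25.2, against 205 and 231. Standard errors and p-values of that fit measure only this small spread. With replicates 2 and 3 of each group summed into 1 sample, only Slc2a3 was higher and only Hk3 lower (adjusted p = 0.0289 and 0.0204), beside 4.32% higher, 4.12% lower and 8.44% in either direction of all 12569 genes tested there.

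**Figure D1:**
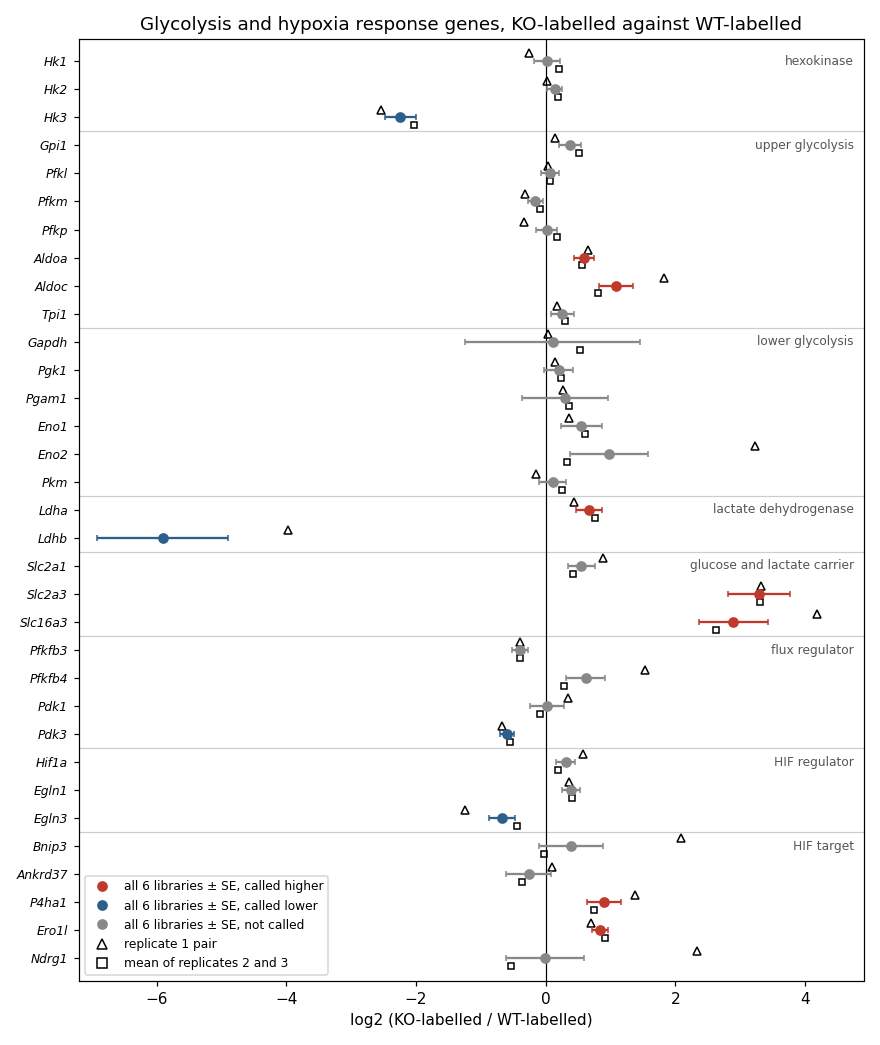
Log2 ratio of KO-labelled to WT-labelled libraries for the 33 tested genes, grouped by role. Filled circles are the edgeR estimate over all 6 libraries with its standard error, open triangles the replicate 1 pair and open squares the ratio of the means of replicates 2 and 3, which is missing for Ldhb because both KO-labelled libraries had 0 reads. Slc2a3 and Slc16a3 lay farthest to the right at 3.29 and 2.89, and Ldhb and Hk3 farthest to the left at -5.91 and -2.24.

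The 3 listed carriers of glucose and lactate, Slc16a3, Slc2a3 and Slc2a1, were above the WT-labelled range in every KO-labelled library, beside 24.1% of all tested genes. Among tested genes of the same carrier families in the further list below, Slc2a6 and Slc2a9 were above too, while Slc2a8, Slc16a1 and Slc16a7 overlapped. Slc16a3 encodes MCT4, the lactate exporter of strongly glycolytic cells, and lies at chr11:120948480-120960868. It had 358, 522 and 512 CPM in KO-labelled libraries, against 19.7, 83.4 and 84.5 CPM in WT-labelled libraries. Every KO-labelled library was above every WT-labelled one, and WT replicate 1 was the lowest of the 6. The mean was 7.43-fold higher in the KO-labelled libraries (log2 fold change 2.89, SE 0.54, adjusted p = 0.00787).

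Slc2a3 encodes GLUT3, a glucose transporter of high affinity, and lies at chr6:122727809-122801640. Its level was 8.29, 5.67 and 4.06 CPM in KO-labelled libraries, against 0.835, 0.689 and 0.298 CPM in WT-labelled libraries. It was low in both groups, without overlap, and 9.89-fold higher in the KO-labelled libraries (log2 fold change 3.29, SE 0.48, adjusted p = 0.00315). Slc2a1 encodes GLUT1, the glucose transporter found in most cells. It averaged 117 ± 11.3 CPM in the KO-labelled and 80.0 ± 20.7 CPM in the WT-labelled libraries (SD, n = 3 each), without overlap, but did not pass the test (log2 fold change 0.55, adjusted p = 0.0958). Without WT replicate 1 Slc2a1 passed it, with an adjusted p of 0.0455.

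Among the hexokinases, which trap glucose in the cell by phosphorylation, Hk3 fell. Hk3 is known mainly from neutrophils and other myeloid cells and lies at chr13:55005985-55021385. It had 175, 151 and 151 CPM in KO-labelled libraries, against 1015, 609 and 627 CPM in WT-labelled libraries. The KO-labelled values lay close together and far below the WT-labelled ones, with WT replicate 1 the highest. The mean was 4.72-fold higher in the WT-labelled libraries (log2 fold change -2.24, SE 0.24, adjusted p = 8.5e-04). The myeloid markers named above also differed, with a mean of 207 against 24.8 CPM for Csf1r and 0.427 against 200.1 CPM for Mpo in KO-labelled and WT-labelled libraries, and their part in the result was not tested. Hk1, the widely expressed hexokinase, averaged 211 ± 14.4 CPM in the KO-labelled and 209 ± 54.5 CPM in the WT-labelled libraries. Hk2, the hexokinase induced by growth signals and hypoxia, averaged 112 ± 7.48 CPM in the KO-labelled and 102 ± 6.38 CPM in the WT-labelled libraries (SD, n = 3 each), and neither passed the test.

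In the upper part of the pathway, 2 of 7 genes rose and none fell, beside 13.7% of all tested genes in each direction. Both encode aldolases, which split fructose bisphosphate into 3-carbon sugars. Aldoa, the main form in most cells, at chr7:126795234-126800751, had 1847, 1971 and 1825 CPM in KO-labelled libraries, against 1179, 1269 and 1307 CPM in WT-labelled libraries. Aldoc, a form known best from the brain, at chr11:78322968-78327781, had 50.8, 51.6 and 46.0 CPM in KO-labelled libraries, against 14.3, 26.9 and 29.0 CPM in WT-labelled libraries. Groups did not overlap for either gene. Log2 fold changes were 0.59 (SE 0.16, adjusted p = 0.0323) for Aldoa and 1.08 (SE 0.26, adjusted p = 0.0214) for Aldoc.

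Both aldolase calls depended on single libraries. Aldoa remained called only without WT replicate 1 (adjusted p = 0.0209), and the other 5 omissions gave 0.06 to 0.156. Aldoc lost its call without KO replicate 1, 2 or 3 or WT replicate 2, with adjusted p from 0.0542 to 0.072.

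The other 5 upper genes had no call. Gpi1, the isomerase that converts glucose-phosphate to fructose-phosphate, was without overlap at 1055 ± 34.8 CPM in the KO-labelled and 813 ± 109 CPM in the WT-labelled libraries (adjusted p = 0.138), and passed the test without WT replicate 1 (0.0246). Tpi1, which interconverts the 3-carbon sugars, averaged 1069 ± 139 CPM in the KO-labelled and 896 ± 74.3 CPM in the WT-labelled libraries. The phosphofructokinase subunits Pfkl, Pfkp and Pfkm, whose enzyme commits sugar to glycolysis, had log2 fold changes of 0.06, 0.02 and -0.16 with adjusted p from 0.356 to 0.953.

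Of the bifunctional enzymes that set the level of the phosphofructokinase activator, Pfkfb3 lay just outside the threshold. It had 76.5, 68.3 and 69.7 CPM in KO-labelled libraries, against 100.4, 84.2 and 97.5 CPM in WT-labelled libraries, without overlap (log2 fold change -0.40, SE 0.12, adjusted p = 0.0512). It passed the test without WT replicate 1 or WT replicate 2, with the lower adjusted p at 0.0426. Pfkfb4 averaged 22.8 ± 0.964 CPM in the KO-labelled and 14.9 ± 5.93 CPM in the WT-labelled libraries (SD, n = 3 each, adjusted p = 0.182). WT replicate 1 had only 8.30 CPM of Pfkfb4, against 19.7 and 16.7 CPM in WT replicates 2 and 3.

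In the lower part of the pathway 0 of 6 genes were called with all 6 libraries, beside 27.3% of all tested genes (edgeR quasi-likelihood test, with all 6 above an unadjusted p of 0.05). With replicates 2 and 3 alone 3 of them, Gapdh, Pgam1 and Eno1, were higher, beside 25.8% of all genes tested there. Gapdh had the widest error with all 6 libraries. Gapdh, glyceraldehyde-3-phosphate dehydrogenase, at chr6:125161715-125166467, is often used as a reference for RNA amounts. It had 2716, 254 and 248 CPM in KO-labelled libraries, against 2645, 181 and 167 CPM in WT-labelled libraries. Both replicate 1 libraries were far above the other 4, at 10.8 times the mean of replicates 2 and 3 in the KO-labelled group and 15.2 times in the WT-labelled group. With all 6 libraries its log2 fold change was 0.11 (SE 1.35, adjusted p = 0.968). It turned to -1.99 without KO replicate 1 and became 2.63 without WT replicate 1, with no call in either. With replicates 2 and 3 alone Gapdh was higher in the KO-labelled libraries (log2 fold change 0.52, SE 0.07, adjusted p = 0.00151). That split was made because of Gapdh itself, so this p-value is not independent of the choice.

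Pgam1, phosphoglycerate mutase, at chr19:41911923-41918660, had the same pattern at a smaller size. It had 1159, 360 and 349 CPM in KO-labelled libraries, against 967, 259 and 293 CPM in WT-labelled libraries. Replicate 1 was 3.27 times the mean of replicates 2 and 3 in the KO-labelled group and 3.51 times in the WT-labelled group. With all 6 libraries its log2 fold change was 0.30 (SE 0.66, adjusted p = 0.782), -0.51 without KO replicate 1 and 1.18 without WT replicate 1. With replicates 2 and 3 alone it was 0.35 (SE 0.08, adjusted p = 0.0136).

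Gapdh and Pgam1 were the only 2 of the 33 tested genes with replicate 1 at least 2-fold above replicates 2 and 3 in both groups. Of all tested genes 0.915% had this pattern. Because replicate 1 was set apart for its Gapdh values, Gapdh had to be among them and is no independent finding. None had replicate 1 at least 2-fold below in both groups, beside 1.05% of all tested genes. For 30 other genes, all but Ldhb, this ratio ran from 0.568 to 1.70 in the KO-labelled and from 0.147 to 1.69 in the WT-labelled group. Among 12 commonly used reference genes none was called between the groups, and Tbp came nearest, with an adjusted p of 0.0508. Ppia, cyclophilin A, shared the pattern with 2955, 841 and 846 CPM in the KO-labelled and 4111, 1194 and 819 CPM in the WT-labelled libraries. The other 11 reference genes, Actb and Rplp0 among them, had ratios of 0.833 to 1.81 in the KO-labelled and 0.464 to 1.90 in the WT-labelled group.

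Many genes of this pathway have processed copies elsewhere in the genome, which can split or remove reads at counting. The share of 31-base words also found in transcripts of other genes was 29.2% for Gapdh, 42.3% for Pgam1 and 53.2% for Pgk1. Of the 33 tested genes 10 had at least 20%, against 12.5% of all tested genes, and 14 of the 34 had less than 1%. Ldha (20.6%) and Ldhb (33.6%) were the called genes among the 10, and their counts are uncertain to that extent. Replicate 1 ratios of genes with shared words varied. Ppia, with 21.7% shared words, had ratios of 3.50 in the KO-labelled and 4.09 in the WT-labelled group. Pgk1, phosphoglycerate kinase, which makes the first ATP of the pathway, had ratios of 1.34 in the KO-labelled and 1.43 in the WT-labelled group, and Bnip3, with 56.6% shared words, had 0.962 and 0.223. The part of shared sequence in the replicate 1 values was not tested.

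**Figure D2:**
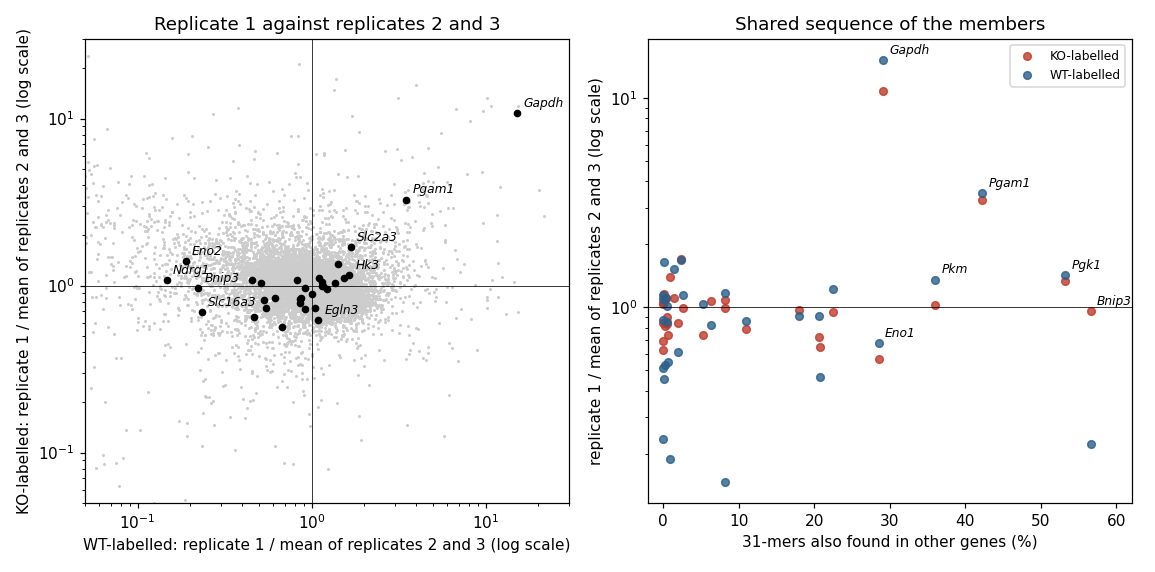
Left, ratio of replicate 1 to the mean of replicates 2 and 3 in the KO-labelled group (vertical, log scale) and the WT-labelled group (horizontal, log scale), with tested glycolysis and hypoxia genes in black and all other genes in gray; a few genes beyond the axis range are not drawn. Right, the same ratio of each gene against its share of 31-base words found in other genes. Gapdh and Pgam1 lie apart at 10.8 and 15.2 and at 3.27 and 3.51 in the KO-labelled and WT-labelled groups, while Pgk1, with 53.2% shared words, lies at 1.34 and 1.43.

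The remaining genes of the lower part had no call with all 6 libraries. Pkm, pyruvate kinase, which makes pyruvate, averaged 3177 ± 92.0 CPM in the KO-labelled and 2950 ± 549 CPM in the WT-labelled libraries. Pgk1, on chromosome X, averaged 1062 ± 190 CPM in the KO-labelled and 924 ± 204 CPM in the WT-labelled libraries. Eno1, the main enolase of most tissues, was counted at only 8.83 ± 2.61 CPM in the KO-labelled and 6.04 ± 1.63 CPM in the WT-labelled libraries (SD, n = 3 each). It shares 28.1% of its words with Eno1b, which was counted at 22.0, 15.9 and 16.6 CPM in the KO-labelled and 23.1, 10.3 and 7.45 CPM in the WT-labelled libraries, so the level of Eno1 is uncertain. Eno2, the enolase known from neurons, had 4.28, 2.99 and 3.10 CPM in the KO-labelled and 0.459, 2.53 and 2.33 CPM in the WT-labelled libraries, with WT replicate 1 the lowest (adjusted p = 0.273).

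The 18 glycolytic enzymes, lactate dehydrogenases included, summed to 14874, 12513 and 11973 CPM in KO-labelled libraries, against 14394, 9644 and 9695 CPM in WT-labelled libraries. Without Gapdh and Pgam1 the sum was 10998, 11899 and 11375 CPM in the KO-labelled and 10783, 9205 and 9236 CPM in the WT-labelled libraries. The summed values overlapped between the groups with Gapdh and Pgam1 included, and did not overlap without them. The gap was narrow, with KO replicate 1 at 10998 CPM and WT replicate 1 at 10783 CPM. Gapdh and Pgam1 were left out because of their replicate 1 values in these data.

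The lactate dehydrogenase genes differed in opposite directions. Ldha encodes the muscle-type subunit, which favours making lactate, and lies at chr7:46841475-46855627. It had 1761, 2465 and 2387 CPM in KO-labelled libraries, against 1301, 1437 and 1421 CPM in WT-labelled libraries. Groups did not overlap, and KO replicate 1 was the lowest of its group (log2 fold change 0.67, SE 0.20, adjusted p = 0.0438). Ldha lost its call without KO replicate 2, KO replicate 3, WT replicate 2 or WT replicate 3, with adjusted p from 0.101 to 0.182, and also when library totals replaced TMM scaling (0.0644).

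Ldhb encodes the heart-type subunit, which favours using lactate, and lies at chr6:142490249-142507957. It had 1, 0 and 0 reads in the KO-labelled libraries, against 17, 40 and 20 reads in the WT-labelled libraries. The highest WT-labelled level was 2.30 CPM, so the gene was low in both groups, and at or under the floor of 3 reads in the KO-labelled libraries. The summed reads, 1 in the KO-labelled and 77 in the WT-labelled libraries, gave a ratio of 0.0129 with a 95% exact interval of 3.2e-04 to 0.0739, which covers counting error only. The adjusted p was 0.0057.

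Pyruvate dehydrogenase kinases keep pyruvate out of the mitochondrial cycle by switching off pyruvate dehydrogenase. Pdk3, at chrX:93764607-93832201, had 53.0, 50.8 and 50.1 CPM in KO-labelled libraries, against 84.8, 73.1 and 75.3 CPM in WT-labelled libraries. Groups did not overlap (log2 fold change -0.60, SE 0.11, adjusted p = 0.00860), and the call was lost without KO replicate 2 or KO replicate 3, with adjusted p of 0.0592 and 0.0581. Sex-linked genes differed between the groups too. Xist, the RNA that silences an X chromosome, had 0, 4.76 and 4.77 CPM in the KO-labelled and 564, 2109 and 2090 CPM in the WT-labelled libraries. The Y-linked Ddx3y had 78.5, 82.2 and 89.2 CPM in the KO-labelled and 0, 0.804 and 0.596 CPM in the WT-labelled libraries. Pdk3 and Pgk1 are themselves X-linked. Pdk1, the best known HIF target among these kinases, had 116, 158 and 158 CPM in the KO-labelled and 91.6, 167 and 169 CPM in the WT-labelled group, and its groups overlapped.

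Of the HIF regulators, Egln3 fell. It encodes PHD3, a prolyl hydroxylase that is itself a HIF target, at chr12:54178981-54203860. It had 158, 251 and 253 CPM in KO-labelled libraries, against 375, 333 and 351 CPM in WT-labelled libraries. Groups did not overlap, and KO replicate 1 was the lowest of the 6 (log2 fold change -0.68, SE 0.20, adjusted p = 0.0473). The call held only without WT replicate 1 (0.0474), and the other 5 omissions gave 0.066 to 0.111. It was also lost with library totals (0.0772) and with no filter on low counts (0.0514).

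Hif1a, the oxygen-sensitive HIF subunit, at chr12:73901375-73947530, had 481, 452 and 441 CPM in KO-labelled libraries, against 323, 394 and 392 CPM in WT-labelled libraries. Every KO-labelled library was above every WT-labelled one, but the difference did not pass the test (log2 fold change 0.31, SE 0.14, adjusted p = 0.16) and lay at 0.17 with replicates 2 and 3 alone. RNA levels of Hif1a do not show the amount of its protein, which is set mainly by degradation. Egln1, which encodes PHD2, the main oxygen sensor of the family, averaged 71.9 ± 6.99 CPM in the KO-labelled and 55.0 ± 7.50 CPM in the WT-labelled libraries (SD, n = 3 each, adjusted p = 0.0894).

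Of 6 HIF targets outside glycolysis, 5 were tested and 2 rose, beside 13.7% of all tested genes, and both encode proteins of the endoplasmic reticulum. Ero1l, the oxidase that drives disulfide bond formation, at chr14:45283087-45318771, had 336, 341 and 338 CPM in KO-labelled libraries, against 207, 170.3 and 191 CPM in WT-labelled libraries. P4ha1, the catalytic subunit of collagen prolyl hydroxylase, at chr10:59323296-59373304, had 65.4, 82.4 and 77.2 CPM in KO-labelled libraries, against 25.2, 44.1 and 51.1 CPM in WT-labelled libraries. Groups did not overlap for either gene, and WT replicate 1 was the lowest for P4ha1. Log2 fold changes were 0.84 (SE 0.13, adjusted p = 0.0037) for Ero1l and 0.90 (SE 0.26, adjusted p = 0.0400) for P4ha1. P4ha1 lost its call without KO replicate 1, 2 or 3 or WT replicate 2 (0.0773 to 0.117), with library totals (0.0694) and with upper-quartile scaling (0.0513).

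Bnip3 and Ndrg1 differed mainly in WT replicate 1. Bnip3, a mitophagy receptor and a classical HIF target, had 190.3, 195 and 200.3 CPM in KO-labelled libraries, against 44.9, 217 and 185 CPM in WT-labelled libraries. Ndrg1, a stress-induced gene, had 43.1, 40.6 and 39.1 CPM in KO-labelled libraries, against 8.51, 56.4 and 59.4 CPM in WT-labelled libraries. KO-labelled values lay close together for both genes, while WT replicate 1 lay far below the other WT-labelled libraries. With all 6 libraries neither passed the test (log2 fold change 0.39, adjusted p = 0.612, for Bnip3 and -0.02, adjusted p = 0.99, for Ndrg1). Without WT replicate 1 Ndrg1 was lower in the KO-labelled libraries, with an adjusted p of 0.00706, and with replicates 2 and 3 alone its log2 fold change was -0.55 (adjusted p = 0.00197). The log2 fold change of Bnip3 was -0.04 under both of these settings.

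Ankrd37, a small ankyrin repeat protein, averaged 8.78 ± 2.03 CPM in the KO-labelled and 10.6 ± 4.06 CPM in the WT-labelled libraries (SD, n = 3 each, adjusted p = 0.622). Adm, which encodes the vasodilator peptide adrenomedullin, did not pass the filter on low counts. It had 5, 0 and 0 reads in the KO-labelled and 1, 9 and 11 reads in the WT-labelled libraries, too few for a comparison.

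**Figure D3:**
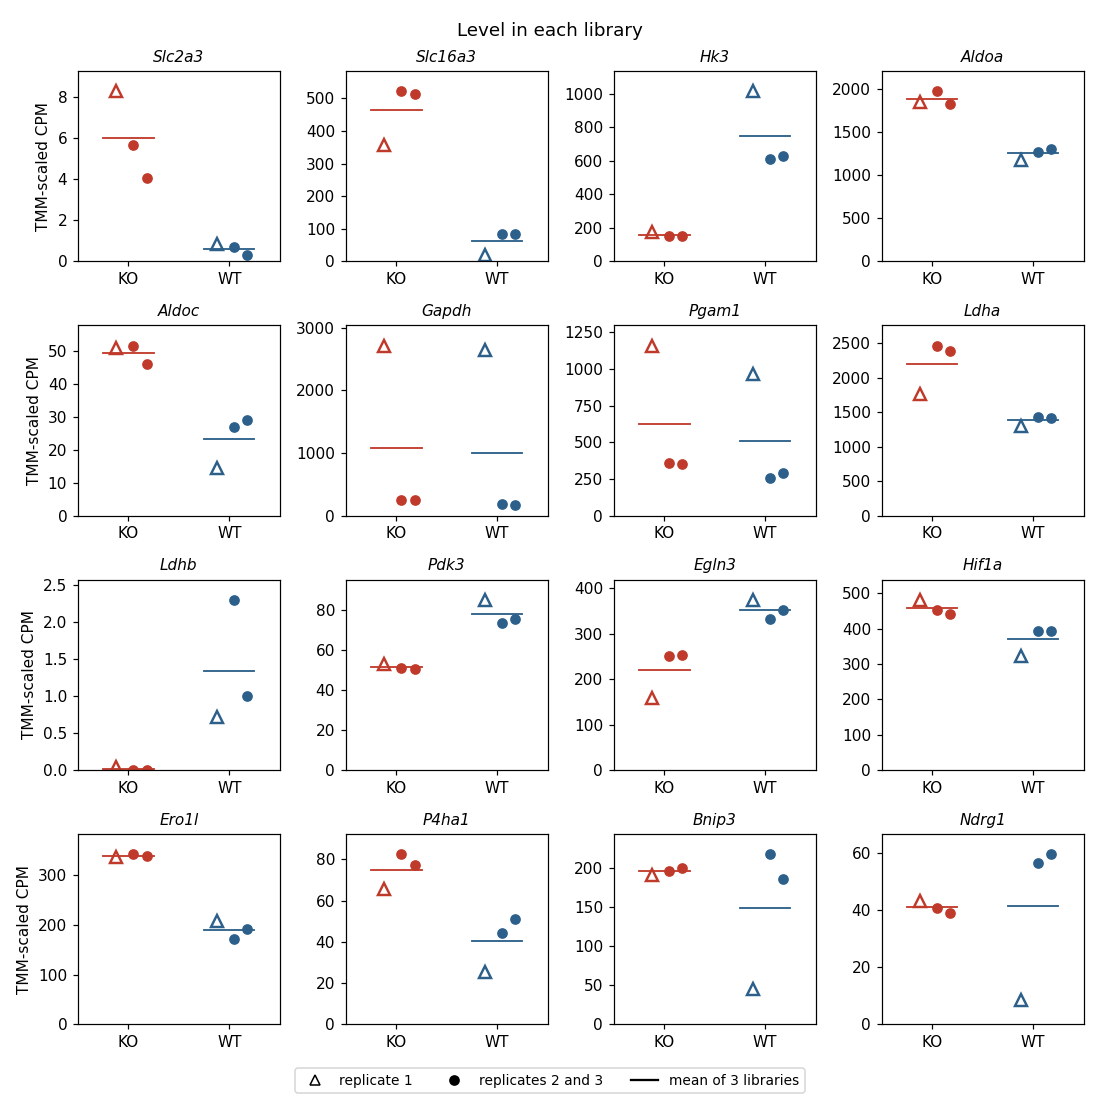
TMM-scaled CPM in each library for 16 genes, with the KO-labelled group on the left and the WT-labelled group on the right of each panel. Open triangles are replicate 1, filled circles replicates 2 and 3, and lines the mean of 3 libraries. The triangles lie far above the circles in both groups for Gapdh and Pgam1, and WT replicate 1 lies far below the other WT-labelled libraries for Slc16a3, Bnip3 and Ndrg1.

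The replicate 1 pair alone, with 1 library in each group and so no replicate check, is described without a test. KO replicate 1 was at least 2-fold above WT replicate 1 for 8 genes of the 33, beside 17.2% of all tested genes, and at least 2-fold below it for 3, beside 12.7%. The 8 were Slc16a3 (18.2-fold), Slc2a3 (9.93-fold), Eno2 (9.33-fold), Ndrg1 (5.06-fold), Bnip3 (4.23-fold), Aldoc (3.55-fold), Pfkfb4 (2.88-fold) and P4ha1 (2.59-fold). The 3 were Ldhb, Hk3 and Egln3, with KO to WT ratios of 0.0635, 0.172 and 0.421. The sign of the difference was the same in replicate 1 and in the mean of replicates 2 and 3 for 26 of the 33 genes, while the same held for 66.6% of all tested genes. Replicate 1 was at least 2-fold below the mean of replicates 2 and 3 for 0 of the 33 genes in the KO-labelled group, beside 2.61% of all tested genes, and for 7 of the 33 in the WT-labelled group, beside 12.5%.

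Levels of different genes were compared as CPM per kilobase of exon. Reads lost to copies were not corrected for, so the order is uncertain to that extent. Shared words were 36.0% for Pkm, 20.6% for Ldha and 17.9% for Aldoa. The highest means belonged to Pkm, with 1222 in the KO-labelled and 1135 in the WT-labelled libraries, followed by Ldha with 1163 and 732, and Aldoa with 1031 and 686. In the KO-labelled libraries Pkm and Ldha overlapped. In the WT-labelled libraries all 3 Pkm values, 1379, 1026 and 1001, were above the highest Ldha value of 758. In replicate 1 alone Gapdh was above all of these, at 1817 CPM per kilobase in KO replicate 1 and 1769 in WT replicate 1, but at 111 to 170.2 in the other 4 libraries.

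For 3 pairs of related genes the ranges overlapped in 1 group and not in the other. Among hexokinases, Hk3 had 52.0, 45.1 and 44.9 CPM per kilobase in the KO-labelled libraries, a range that overlapped that of Hk1 with 46.7, 43.0 and 40.8. In the WT-labelled libraries Hk3 had 303, 182 and 187 CPM per kilobase, far above Hk1 with 55.8, 35.1 and 38.0. Hk2 was lowest of the 3 in every library, at 17.0 to 21.2 CPM per kilobase.

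Among the carriers, Slc16a3 had 80.5, 117 and 115 CPM per kilobase in the KO-labelled libraries, above Slc2a1 with 32.0, 38.7 and 36.9. In the WT-labelled libraries Slc16a3, with 4.42, 18.7 and 19.0, was below Slc2a1, with 17.3, 27.3 and 29.0, in each library, although the ranges overlapped. Slc2a3 stayed at 2.09 CPM per kilobase or less in every library. Egln3, with 59.2, 94.4 and 95.1 CPM per kilobase, overlapped Hif1a, with 88.3, 83.0 and 81.0, in the KO-labelled libraries. It was above Hif1a in the WT-labelled libraries, with 141, 125 and 132 for Egln3 and 59.3, 72.2 and 72.0 for Hif1a.

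**Figure D4:**
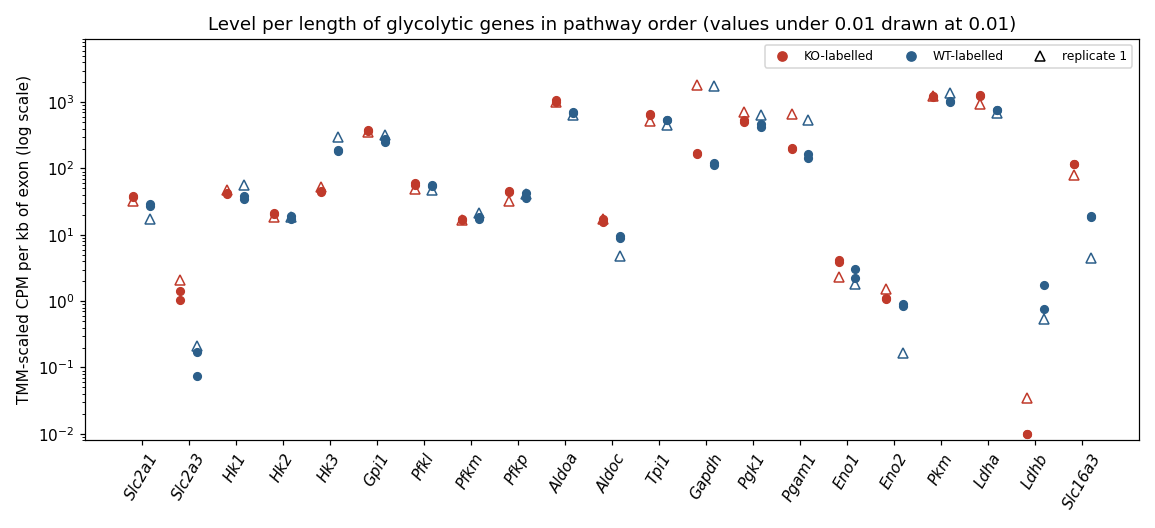
CPM per kilobase of exon (log scale) of the glycolytic genes and carriers in the order of the pathway, from glucose uptake to lactate export, with the KO-labelled group left of the WT-labelled group for each gene. Open triangles are replicate 1 and filled circles replicates 2 and 3, and values under 0.01 are drawn at 0.01. Pkm, Ldha and Aldoa had the highest means, and Slc16a3 and Hk3 separate the groups in opposite directions.

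Further genes of the same pathways were counted from lists assembled by pathway, with earlier results of these data known. Of 57 genes of glucose transport, pyruvate entry, the pentose phosphate branch and glycogen, 41 were tested, 9 were higher and 1 was lower in the KO-labelled libraries. These shares were 22% and 2.44%, beside 13.7% of all tested genes in each direction, and the median log2 fold change was 0.15. The number of higher genes was 4 without KO replicate 2, 5 without KO replicate 3 and 14 without WT replicate 1. Of all tested genes 7.6%, 7.89% and 22% were higher under these omissions, in that order. The number of lower genes was 0, 0 and 4, beside 7.41%, 7.54% and 20.8% of all tested genes. The smallest p belonged to the gene listed as 9630033F20Rik, also named Tigar, a phosphatase that steers sugar towards the pentose phosphate branch. It averaged 42.5 ± 0.898 CPM in the KO-labelled and 14.6 ± 1.69 CPM in the WT-labelled libraries (SD, n = 3 each, adjusted p = 4.0e-04).

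Gbe1, the glycogen branching enzyme, averaged 114 ± 5.30 CPM in the KO-labelled and 39.3 ± 8.11 CPM in the WT-labelled libraries (adjusted p = 9.5e-04). G6pdx, the X-linked dehydrogenase that opens the pentose phosphate branch, averaged 337 ± 6.64 CPM in the KO-labelled and 215 ± 15.0 CPM in the WT-labelled libraries (adjusted p = 0.00844), and its call was lost without KO replicate 2 (0.054). Slc2a6, which encodes the lysosomal hexose transporter GLUT6, averaged 227 ± 32.3 CPM in the KO-labelled and 41.3 ± 22.8 CPM in the WT-labelled libraries (adjusted p = 0.0086). Its WT replicate 1 had 14.9 CPM, against 55.2 and 53.8 CPM in WT replicates 2 and 3. The lower gene was Pdp1, a phosphatase that reactivates pyruvate dehydrogenase, with 5.15 ± 0.378 CPM in the KO-labelled and 10.6 ± 1.40 CPM in the WT-labelled libraries (SD, n = 3 each, adjusted p = 0.00974).

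Of 51 further HIF pathway and target genes, 47 were tested, 7 were higher and 5 were lower in the KO-labelled libraries, which is 14.9% and 10.6%, beside 13.7% of all tested genes in each direction. Their median log2 fold change was 0.01. The number of higher genes was 4 without KO replicate 2, KO replicate 3 or WT replicate 3, and 12 without WT replicate 1. Of all tested genes 7.6%, 7.89%, 9.86% and 22% were higher under these omissions, in that order. The number of lower genes was 3 without KO replicate 3 and 10 without WT replicate 1, beside 7.54% and 20.8% of all tested genes. Arnt, the constant HIF subunit, averaged 113 ± 1.07 CPM in the KO-labelled and 62.3 ± 3.70 CPM in the WT-labelled libraries (log2 fold change 0.86, adjusted p = 0.0016). Among the genes that were lower, Plod2, a collagen lysyl hydroxylase, averaged 1.55 ± 0.335 CPM in the KO-labelled and 11.0 ± 3.83 CPM in the WT-labelled libraries (adjusted p = 0.00167). Mxi1, a repressor that opposes MYC, averaged 41.8 ± 6.79 CPM in the KO-labelled and 99.2 ± 9.83 CPM in the WT-labelled libraries (SD, n = 3 each, adjusted p = 0.00171). These 3 genes kept their calls whichever of the 6 libraries was left out.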

How the data were processed

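RNA was converted with a stranded kit for polyadenylated RNA, per the labels' protocols. For each gene and library the authors deposited an unscaled count, made with FastQC 0.11.7, HISAT2 2.0.5, featureCounts 1.5.2 and the build mm10, per the submitters' processing notes. Neither the gene annotation nor the strand option of counting is given in the sources used here. There were 6 library columns with 24062 genes.

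Groups came from the genotype labels. The main test was the quasi-likelihood F test of edgeR 4.0.16 (R 4.3.3) with robust dispersion and TMM factors on the 12126 genes kept by filterByExpr, and p was adjusted over them by Benjamini-Hochberg and called under 0.05. Fold changes are KO-labelled over WT-labelled. Ratios of replicate 1 are described without a test. A count of 3 was the floor, and intervals and floors cover counting error only. Alternatives were DESeq2 1.42.0, limma-voom 3.58.1, other scalings, filters and designs, and leaving out each library. The tests were tested on simulated data with 3 against 3 libraries and 200 changed genes. There edgeR recovered 42% of 2-fold and 96% of 4-fold changes, with 8 false of 146 calls. DESeq2 recovered 68% and 99%, with 41 false of 208 calls, and limma-voom 42% and 94%, with 9 false of 145. A gene without a call may therefore still differ.

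Gene positions, exon lengths and shared 31-base words, over both strands of GENCODE transcripts, and the matching of promoters from RefSeq (GRCm38.p6) were computed in Python 3.11.15, with figures in matplotlib 3.10.9. The genes, the further lists and the tests were chosen with earlier results of these data known. All 34 genes are named, and of each further list up to 4 called genes in order of p, of which 1 is not reported here. Pdp1, Eno1b, Xist and Ddx3y were named after their values were seen.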

Additional observations from a re-analysis of the deposited data

How the results depend on the processing

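Counts of called genes, higher and lower, moved most with the libraries used. With replicates 2 and 3 alone, all tested genes gave 3149 and 3309 calls, the glycolysis and hypoxia genes 14 and 6, the further glycolysis genes 18 and 4, and the further HIF genes 14 and 14. With replicates 2 and 3 of each group summed into 1 sample, the counts were 543 and 518, 1 and 1, 2 and 0, and 4 and 3. At an adjusted p under 0.01, 821 and 873 of all 12126 tested genes were called. The glycolysis and hypoxia genes gave 3 and 3 of 33 tested. The further glycolysis genes gave 4 and 1 of 41 tested, and the further HIF genes 4 and 4 of 47 tested. Leaving out 1 library gave 939 to 2712 higher and 916 to 2568 lower of all tested genes. It gave 3 to 9 higher and 2 to 6 lower glycolysis and hypoxia genes, 4 to 14 and 0 to 4 further glycolysis genes, and 4 to 12 and 3 to 10 further HIF genes. Deviations of same-numbered libraries had correlations of -0.00602, -0.0551 and 0.0522. Both replicate 1 libraries were nevertheless high for Gapdh, Pgam1 and Ppia. Such correlations cannot show whether the numbers mark something shared that acts on some genes, and this was not tested. A replicate block gave 989 higher and 1034 lower of all tested genes, and 4 and 3 of the glycolysis and hypoxia genes. Without genes that share at least 20% of their words, which left out 10 of these genes, 6 and 4 were called, beside 1517 and 1603 of 10619 genes. DESeq2 called 2061 and 2026 of all tested genes and 8 and 5 of the glycolysis and hypoxia genes.

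Directions that turned all belonged to genes without a call, and the cause was not tested. Over the omissions of 1 library, log2 fold changes ran from -0.115 to 0.257 for Hk1, -0.007 to 0.15 for Pfkl, -0.062 to 0.154 for Pfkp, -1.987 to 2.633 for Gapdh, -0.512 to 1.181 for Pgam1, -0.212 to 0.16 for Pdk1, -0.038 to 0.747 for Bnip3 and -0.495 to 0.34 for Ndrg1. With summed replicates they were -0.023 for Hk1, -0.03 for Pfkp and 0.346 for Ndrg1. With replicates 2 and 3 alone they were -0.1 for Pdk1 and -0.041 for Bnip3. Pdk1 gave -0.002 with upper-quartile scaling. Ndrg1 gave 0.478 with limma-voom, 0.34 with the replicate block and 0.335 with a term for replicate 1. With library totals, chosen after seeing the data for these ratios, replicate 1 was 9.58 and 13.9 times replicates 2 and 3 for Gapdh and 2.90 and 3.19 times for Pgam1 in the KO-labelled and WT-labelled groups. Low read counts limit the precision of Ldhb, Adm and Slc2a3.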
